A study of Danio rerio with 33 samples.

Results

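The genes described here are the lens crystallins and a few structural genes of the lens fibre cell, measured in whole zebrafish embryos exposed to extracts of airborne particles. Members are the rows of the deposited count table whose gene name begins with cry followed by a, b or g and a further letter, together with mipa, mipb, lim2.4, BFSP1 and bfsp2, which gave 60 of 25432 genes. The clock genes cry1 to cry5 are not among them. By name, 3 members are alpha crystallins, 12 are beta crystallins, 33 are gamma M crystallins, 2 are gamma N crystallins and 4 are gamma S crystallins. One further member is crybgx, a crystallin of the beta and gamma superfamily. The other 5 are the membrane genes mipa, mipb and lim2.4 and the beaded filament genes BFSP1 and bfsp2. Enough reads for testing were found for 52 members, and the 8 others (cryaba, the 4 gamma S genes, crygm2a, crygm4 and crygm6) had few or no counts.

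Wild-type embryos were exposed for 24 h, between 96 and 120 hours post-fertilization (hpf), and RNA was taken from pools of 10 whole embryos. Each of the 33 libraries is 1 pool. Airport (3 pools, with 1 pool per filter, where filters 44 and 48 were collected in the cold season and filter 54 in the warm season), harbour (9 pools, filters 32, 36 and 38, cold season) and road (9 pools, filters 26, 28 and 30, cold season) are organic extracts of particle filters from Barcelona, and subway (3 pools, filter 80) is an extract from Valencia. The controls were the extract of a mock filter (3 pools) and the vehicle (6 pools), and methanol was the solvent of every extract. Pools of 1 filter share that filter and are not further filters, so p-values over them partly measure the spread between pools. Subway is 1 filter.

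The lens of a vertebrate is built from fibre cells that elongate, fill with crystallins and then lose their nuclei and organelles. Alpha crystallins belong to the small heat shock proteins and act as chaperones, while beta and gamma crystallins are packed structural proteins that give the lens its refractive index. Gamma M crystallins are typical of fish lenses. The mip genes encode aquaporin 0, the water channel and junction protein of the fibre membrane, which exists in 2 copies in zebrafish, and lim2.4 belongs to the family of the lens intrinsic membrane protein 2 known from mammals. BFSP1 (filensin) and bfsp2 (phakinin) build the beaded filament, a form of cytoskeleton found in lens fibres. Fibre differentiation is under way in embryos of this age, so transcripts of all these groups are being made during the exposure.

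Library totals ran from 18448718 to 51854033 counts. The library numbers fall into 3 series, named 35, 37 and 38, and the quality table places series 35 in one sequencing round and series 37 and 38 in another. All airport and mock filter pools are of series 35, all subway pools are of series 38 together with 1 harbour pool of filter 36 (harbour 5), and vehicle, harbour and road have pools in series 35 and in series 37. Airport 3 is the library with the most counts and also the one with the shortest inserts, 197.3 bases where the others had 222 or more. Vehicle 3 and mock filter 2 and 3 stood apart in mxc, an interferon-induced antiviral gene, at 58.3 to 80.7 CPM. The other 30 libraries had 0.252 to 8.04 CPM. Some counts against vehicle are also given without vehicle 3 and mock filter 2 and 3. Airport against mock filter is given only with mock filter 2 and 3. Levels are CPM, counts divided by library totals scaled by the trimmed mean of M values (TMM), and they are compared between libraries and not between genes, because they are not divided by gene length. In whole embryos, fewer lens cells and less RNA per lens cell cannot be told apart.

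Members together took 0.915 to 1.49% of all counts of a library. The summed crystallin level was 10913, 11752 and 9112 CPM in the airport pools. It ran from 8833 to 15444 CPM in the harbour pools, from 8540 to 14531 CPM in the road pools and from 8806 to 9753 CPM in the subway pools. It was 10429, 12311 and 11755 CPM in the mock filter pools, and 13069, 15740 and 13502 CPM in the series 35 vehicle pools and 10497, 10390 and 13409 CPM in the series 37 vehicle pools. All airport pools lay below all vehicle pools of their own series, but 2 of them lay above 2 of the series 37 vehicle pools. The plot of summed crystallins by group shows this difference between the series in vehicle, harbour and road alike. Of the summed member level, the 20 genes named crygm2d made up 46.7 to 54.8%.

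**Figure D1:**
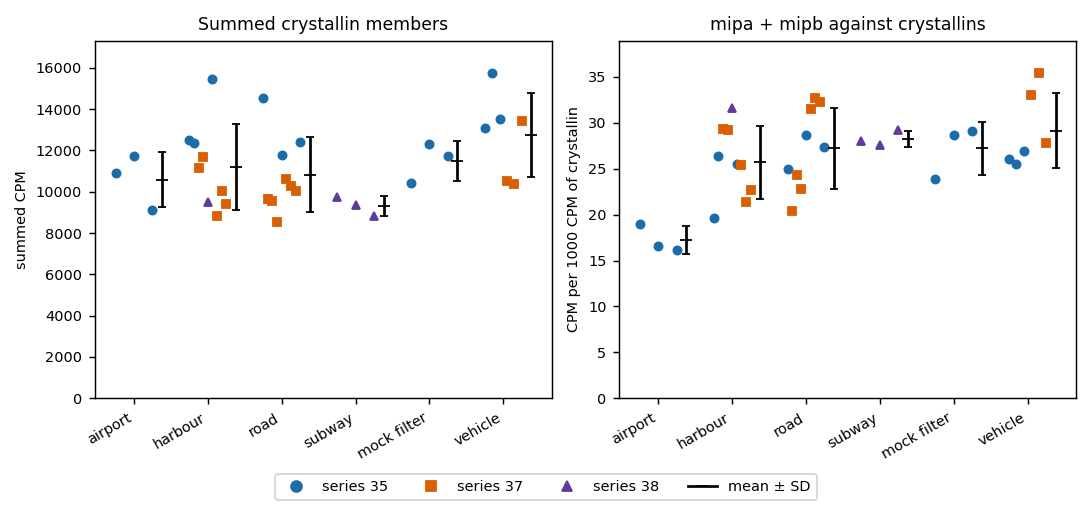
Summed level of the 55 crystallin members in CPM (left) and summed mipa and mipb in CPM per 1000 CPM of crystallin (right), by group, with 1 point per embryo pool, marker shape and colour for the library series, and a bar for the mean ± SD. The airport pools lie at 16.2 to 19.0 on the right panel, below every vehicle pool, while their crystallin sums overlap those of series 37 vehicle pools.

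The airport comparison asks what extracts of airport particles did to the embryo relative to the vehicle. In the airport pools 38 of the 52 members fell and 0 rose against vehicle (adjusted p under 0.05, edgeR quasi-likelihood test over 22124 genes with library series as covariate, n = 3 and 6). Over all genes tested, 17.2% were lower. Counting libraries in place of the fit, 10 of the 52 members were lower in every airport pool than in every vehicle pool (11.9% of all genes), and 31 were when only the vehicle pools of series 35 were used (15.9% of all genes). The median log2 fold change of the members was -0.46, where that of all genes was -0.03, and 51 of the 52 estimates were below 0. By group, all 3 membrane genes and both filament genes fell, as did 1 of 2 alpha crystallins, 8 of 12 beta crystallins, crybgx, both gamma N crystallins and 21 of 30 gamma M crystallins, 16 of which are crygm2d genes. The membrane genes had the largest group median, -1.11, against -0.56 in the beta and -0.43 in the gamma M crystallins.

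**Figure D2:**
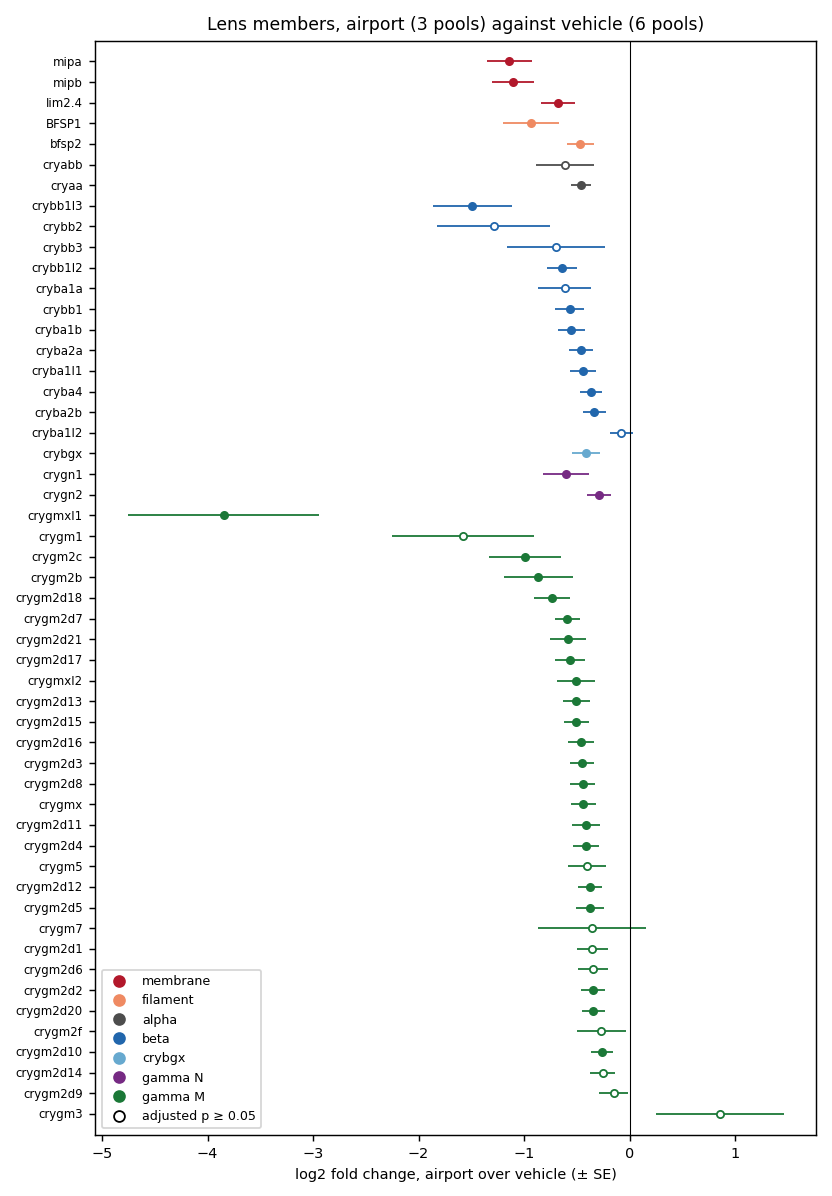
Log2 fold change of airport over vehicle with its standard error for the 52 members tested, grouped and coloured by family, where open circles did not pass an adjusted p of 0.05. The estimates lie below 0 for 51 members; mipa and mipb lie near -1.1, most crystallins lie between -0.3 and -0.7, and crygm3 alone lies above 0 with a wide error.

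mipa (ENSDARG00000037285) had 96.0, 92.8 and 82.4 CPM in the airport pools. The vehicle pools had 183, 188 and 178 CPM in series 35 and 168, 174 and 175 CPM in series 37. No airport pool came near a vehicle pool, and the vehicle pools of both series lay close together. The log2 fold change was -1.14 ± 0.21 (SE; adjusted p = 0.000271, edgeR quasi-likelihood), so that the fitted airport level was 45.3% of vehicle. Against the mean of the series 35 vehicle pools alone, the airport pools lay at -0.93, -0.98 and -1.15 (log2 CPM, pseudocount 0.5). mipb (ENSDARG00000013963), the other aquaporin 0 gene, had 111, 102 and 64.8 CPM in airport pools, against 157, 214, 185, 179, 194 and 198 CPM in vehicle pools. These groups did not overlap either, and the warm-season pool of filter 54 was the lowest of all libraries for both genes. The mipb log2 fold change was -1.11 ± 0.20 (adjusted p = 0.000179), the smallest p of any member.

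lim2.4 (ENSDARG00000015445) had 58.9, 60.3 and 43.0 CPM in airport pools, against 69.0, 101 and 79.4 CPM in series 35 vehicle pools and 62.8, 69.7 and 75.9 CPM in series 37 vehicle pools. It fell by 0.68 ± 0.16 on the log2 scale (adjusted p = 0.00174, edgeR), and every airport pool was below every vehicle pool. The filament gene BFSP1 (ENSDARG00000074919) had 18.5, 15.4 and 21.0 CPM in airport pools, while the 6 vehicle pools had 30.24 at the lowest, 34.2 at the median and 43.5 CPM at the highest. The groups were again separate, and the log2 fold change was -0.94 ± 0.27 (adjusted p = 0.00779). Its partner bfsp2 (ENSDARG00000011998) had 66.9, 68.2 and 74.0 CPM in airport pools, against 100.3, 97.7 and 89.5 CPM in series 35 and 71.8, 74.7 and 78.5 CPM in series 37 vehicle pools. Here 1 airport pool lay above the lowest series 37 vehicle pool. The log2 fold change from the fit with series as covariate was -0.47 ± 0.13 (adjusted p = 0.00509, edgeR). The series shift in that fit is shared by vehicle, harbour and road pools. The airport estimates are therefore not contrasts within series 35 alone.

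**Figure D3:**
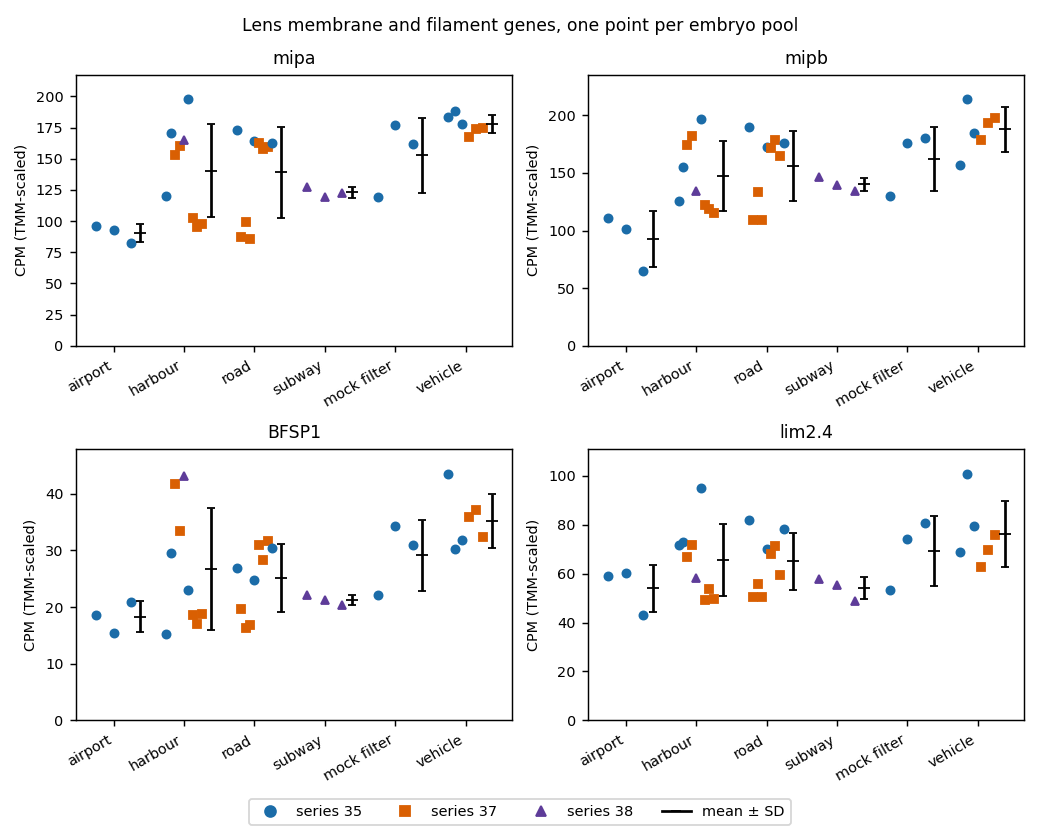
CPM of the membrane genes mipa, mipb and lim2.4 and of the filament gene BFSP1 in every embryo pool by group, with marker shape and colour for the library series and a bar for the mean ± SD; each axis starts at 0. For mipa the airport pools lie at 82.4 to 96.0 CPM and the vehicle pools at 168 to 188 CPM, and the harbour and road pools fall into a higher and a lower set.

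Among the alpha crystallins, cryaa (ENSDARG00000053502) had 76.8, 74.2 and 67.5 CPM in airport pools, against 103, 95.2 and 104 CPM in series 35 vehicle pools and 74.5, 72.9 and 84.9 CPM in series 37 vehicle pools. The airport values overlapped those of the series 37 vehicle pools and lay below those of their own series. It fell by 0.46 ± 0.09 on the log2 scale (adjusted p = 0.000568, edgeR). cryabb, which together with cryaba corresponds to the alpha B crystallin of mammals, was scarce at 0.697 to 0.855 CPM in airport pools against 0.821 to 1.66 CPM in vehicle pools, and its log2 fold change of -0.61 ± 0.27 did not pass (adjusted p = 0.0833). cryaba had 0 to 4 counts in any library and was not tested.

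Of the beta crystallins, crybb1l2 had 779, 734 and 449 CPM in airport pools, against 778, 1133 and 1039.8 CPM in series 35 vehicle pools and 797, 866 and 1008 CPM in series 37 vehicle pools. Only airport 3 lay far below the vehicle range, and the log2 fold change was -0.64 ± 0.14 (adjusted p = 0.00105, edgeR). crybb1 showed the same arrangement with 739.9, 738 and 509 CPM in airport pools, against 704 to 1112 CPM in vehicle pools, and fell by 0.57 ± 0.14 on the log2 scale (adjusted p = 0.00241). cryba1b had 590.3, 601 and 493 CPM in airport pools, against 634 to 887 CPM in vehicle pools, with no overlap and a log2 fold change of -0.55 ± 0.13 (adjusted p = 0.00186). The scarce crybb1l3 had 2.52, 3.37 and 1.47 CPM in airport pools, against 5.24 to 6.75 CPM in vehicle pools, again without overlap. It fell by 1.49 ± 0.37 on the log2 scale (adjusted p = 0.00303), more than any other beta crystallin that passed. The 4 beta crystallins that did not pass were crybb2, crybb3, cryba1a and cryba1l2. Of these cryba1l2 had the estimate closest to 0, -0.08 ± 0.11.

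The gamma crystallins were dominated by the crygm2d genes. In the RefSeq annotation (assembly GRCz12tu, used for gene order only) the longest run of adjacent gamma crystallin genes holds 31 genes, 29 of which are members, among them all 20 crygm2d members. These genes are near-identical copies, so that reads may be shared among them and the value of a single copy is uncertain. Their summed level was 5844, 6525 and 5148 CPM in airport pools, against 7201, 8525 and 7242 CPM in series 35 vehicle pools and 5397, 5104 and 7036 CPM in series 37 vehicle pools. The airport sums lay below the vehicle sums of series 35 and within those of series 37. The 20 log2 fold changes ran from -0.74 to -0.15. crygm2d7 had the smallest p of them, with 279, 304 and 235 CPM in airport pools, against 344, 480.3 and 405 CPM in series 35 and 259.6, 237 and 344 CPM in series 37 vehicle pools, and fell by 0.59 ± 0.12 (adjusted p = 0.000515, edgeR). crygm2d18 fell by 0.74 ± 0.17 (adjusted p = 0.00139). The copies with the highest CPM, crygm2d10 and crygm2d13, fell by 0.27 ± 0.10 and 0.51 ± 0.13 (adjusted p = 0.0492 and 0.00353).

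Outside that set, crygmxl1 (ENSDARG00000018797), a gamma M crystallin-like gene, stood out with 2, 7 and 4 counts in the airport pools, against 28 to 66 counts in the vehicle pools. In CPM this was 0.107, 0.374 and 0.0792 in airport pools, against 1.35 to 2.32 in vehicle pools. The groups were far apart, and the fitted log2 fold change was -3.85 ± 0.90 (adjusted p = 0.00184, edgeR), the lowest of any member. crygm3 was the only member with an estimate above 0, 0.85 ± 0.60 (adjusted p = 0.286), at 1 to 27 counts in any library. The gamma N crystallin crygn2 had 446, 477 and 357 CPM in airport pools, against 421 to 580.4 CPM in vehicle pools, and fell by 0.29 ± 0.11 (adjusted p = 0.0481). The 4 gamma S genes and crygm2a, crygm4 and crygm6 had at most 9 counts in any library and were not tested. Members not named so far that did not pass had log2 fold changes of -1.58 (crygm1) to -0.15 (crygm2d9).

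Because mipa and mipb fell by more than most crystallins, their summed level was set against that of the crystallins of the same library. It was 19.0, 16.5 and 16.2 CPM per 1000 CPM of crystallin in airport pools, against 26.1, 25.5 and 26.88 in series 35 vehicle pools and 33.01, 35.4 and 27.8 in series 37 vehicle pools. Mock filter pools had 23.9, 28.6 and 29.1. The airport pools were the lowest 3 of the 33 libraries, and the next was harbour 1 (filter 32) with 19.7. A score over chosen members was given no test.

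The 3 airport filters were also taken singly, in a fit with 1 coefficient per filter and 53 members tested. Each of these filters is 1 pool, which is assumed to vary like the pools of the other groups, since the spread is estimated from those. Filter 54 had 34 members lower (10.8% of all genes), filter 44 had 9 (10.6%) and filter 48 had 3 (7.4%). The filters were not tested against each other, and the pool of filter 54 had 51854033 counts where those of filters 44 and 48 had 18744571 and 19227737. The median member lay at -0.76, -0.42 and -0.28 on the log2 scale for filters 54, 44 and 48. BFSP1, mipa and mipb passed for both cold-season filters, with log2 fold changes of -0.93 ± 0.25, -1.07 ± 0.25 and -0.84 ± 0.24 for filter 44 and of -1.19 ± 0.26, -1.11 ± 0.25 and -0.96 ± 0.24 for filter 48 (largest adjusted p = 0.0111). The count for filter 44 was 14 to 17 without harbour 2, road 5, vehicle 1 or vehicle 3, and that for filter 48 was 5 or 6 without any 1 of airport 1, harbour 2, 5 or 7, mock filter 1, road 5, 6 or 8, or vehicle 1, 2 or 3. Without filter 54, which is airport 3, 20 members in place of 38 were lower in airport against vehicle. Among libraries of series 35 alone the count was 20 of 48 members tested. Without the covariate for series it was 11, and with only airport and vehicle libraries in the fit it was 14. Without vehicle 3 and mock filter 2 and 3 it was 39, with 1 member higher. Shares of all genes called in these refits are not given, so the counts cannot be set against them. The members mipa, mipb and crygmxl1 kept their call in all 20 alternative settings and in all 33 fits with 1 library left out.

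Against the mock filter, the control that shares the filter material and extraction, fewer members were lower, and so were fewer of all genes. There 4 of 52 members were lower in airport and 0 were higher. This share of members was close to the share of all genes that were lower, 7.96%. mipb differed by -0.81 ± 0.21, mipa by -0.76 ± 0.23, cryaa by -0.38 ± 0.10 and crygmxl1 by -2.78 ± 0.95 on the log2 scale (adjusted p = 0.0103, 0.022, 0.0126 and 0.0409, edgeR). The median over members was -0.13, and 0 of the 20 crygm2d genes passed, with estimates of -0.31 to 0.23. The control pools here include mock filter 2 and 3, which stood apart in mxc. Without them mock filter 1 would be the only control pool, and no such fit is given. Whether the calls against the mock filter depend on these pools was not tested. Against the mean of harbour and road, 19 members were lower in airport and 0 were higher (11.7% of all genes were lower). cryaa had the smallest p there, with a difference of -0.51 ± 0.09 (adjusted p = 0.000493), followed by mipb with -0.82 ± 0.18 and mipa with -0.81 ± 0.20 (adjusted p = 0.00279 and 0.00529). Without airport 3 this count was 3, and without harbour 6 or without road 1 it was 10, with no share of all genes given.

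Embryos exposed to the mock filter extract had member levels that lay mostly below those of vehicle without passing the test. 0 of 52 members were lower or higher (3 of all 22124 genes, 0.0136%, were called in either direction). At an unadjusted p under 0.05, 29 members passed (13.7% of all genes), with 50 estimates below 0 and a median log2 fold change of -0.34. DESeq2 called 2 members lower. Within series 35, 22 of 52 members were lower in every mock filter pool than in every vehicle pool (6.33% of all genes). mipa had 119, 177 and 162 CPM in mock filter pools, against 183, 188 and 178 CPM in the vehicle pools of series 35, so that 1 mock filter pool was low and the others were close to vehicle. The same pool, mock filter 1, had the lowest BFSP1 of the mock filter group, 22.1 CPM where the others had 34.4 and 30.9. Its label number differs from the one that mock filter 2 and 3 share. Without vehicle 3, 9 members were lower in mock filter, and the share of all genes in that fit is not given.

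The harbour and road comparisons ask the same of particles from a port and a busy road. For harbour against vehicle, 0 of 52 members passed (1.25% of all genes passed in either direction), 12 had an unadjusted p under 0.05 (18.1% of all genes), 50 estimates were below 0 and the median was -0.14. For road, 0 of 52 passed (0.411% of all genes), 26 had an unadjusted p under 0.05 (15.4% of all genes), 50 estimates were below 0 and the median was -0.19. DESeq2 called 0 members for harbour and 2 lower for road. Harbour against road gave 0 members in edgeR (0% of all genes) and in DESeq2, and 0 at an unadjusted p under 0.05 (3.9% of all genes). These site values combine several filters. Without filter 36, 7 members were lower in harbour, and without filter 28, 8 were lower in road. The shares of all genes called in these refits are not given here.

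mipa shows how the pools of these sites divided. Its level was 173, 87.3, 99.5 and 85.4 CPM in the pools of road filter 26, where the first is of series 35 and the others are of series 37. In harbour filter 38 it was 198 CPM in the series 35 pool and 102, 95.6 and 97.7 CPM in the series 37 pools. In road filter 28 it was 164, 163, 157 and 159 CPM and in harbour filter 36 it was 170.2, 153, 160.2 and 165 CPM, with vehicle pools at 168 to 188 CPM. The series 37 pools of filters 26 and 38 thus lay close to the airport pools, and the series 35 pools of the same filters lay within or above the vehicle range. Filter 32 had 120.4 CPM and filter 30 had 163 CPM, each in 1 series 35 pool.

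In a fit with 1 coefficient for each filter and series, 24 of 53 members were lower in filter 26 than in vehicle within series 37 (12.1% of all genes were lower). In filter 38, 20 were lower, where 24.2% of all genes passed in either direction. The share lower alone is not given for filter 38, so these shares are not like measures. The p-values of this fit measure the spread between pools and not between filters. The series 37 vehicle pools share 1 number in their labels. The same fit called 0 members for filter 28 (0.0839% of all genes in either direction), with 5 at an unadjusted p under 0.05 (4.15%). It called 0 for filter 36 (0.0574%), with 1 at an unadjusted p under 0.05 (4.75%). mipa fell by 0.90 ± 0.09 in filter 26 and by 0.80 ± 0.09 in filter 38 on the log2 scale (adjusted p = 4.83e-07 and 2.87e-06, edgeR). BFSP1 fell by 0.97 ± 0.14 and 0.94 ± 0.14, and mipb fell by 0.67 ± 0.11 in both. crybb1l3 fell by 1.09 ± 0.23 in filter 26 and by 1.61 ± 0.24 in filter 38. crygmxl1 had 3, 6 and 14 counts in the series 37 pools of filter 26 and 4, 9 and 4 in those of filter 38, against 48, 39 and 66 in the series 37 vehicle pools. cryaa had log2 differences near 0, with 82.2, 79.8 and 70.0 CPM in filter 26 and 75.8, 78.8 and 74.5 CPM in filter 38, against 74.5, 72.9 and 84.9 CPM in vehicle.

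Within series 35 the single pools of filters 26, 28, 36 and 38 gave 0 members each (0.128, 0.0309, 0.569 and 2.41% of all genes passed in either direction). At an unadjusted p under 0.05 they gave 0, 15, 5 and 1 members (9.01, 10.3, 15.2 and 19.9% of all genes). Each of these values rests on 1 pool, and its spread is taken from the other groups. With that assumption, the fold change of filter 38 differed between the series for 10 members, all more negative in series 37 (7.95% of all genes), where its series 35 value is harbour 6 alone. mipa differed by -0.88 ± 0.16 and crygmxl1 by -3.71 ± 0.79 (adjusted p = 0.000675 and 0.00287). For filter 26 the difference passed for mipa, -0.81 ± 0.16, and mipb, -0.69 ± 0.18 (adjusted p = 0.00597 and 0.0349; 1.33% of all genes). For filters 28 and 36 it passed for 0 members (0.00883 and 0.0397% of all genes in either direction), with 1 and 4 at an unadjusted p under 0.05 (4.67 and 10.9% of all genes). The labels give the pools of 1 filter different numbers after the filter number, and what those numbers stand for (an extract, a dilution or a repeat) is not stated in those labels. Series, round and any such difference cannot be told apart.

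**Figure D4:**
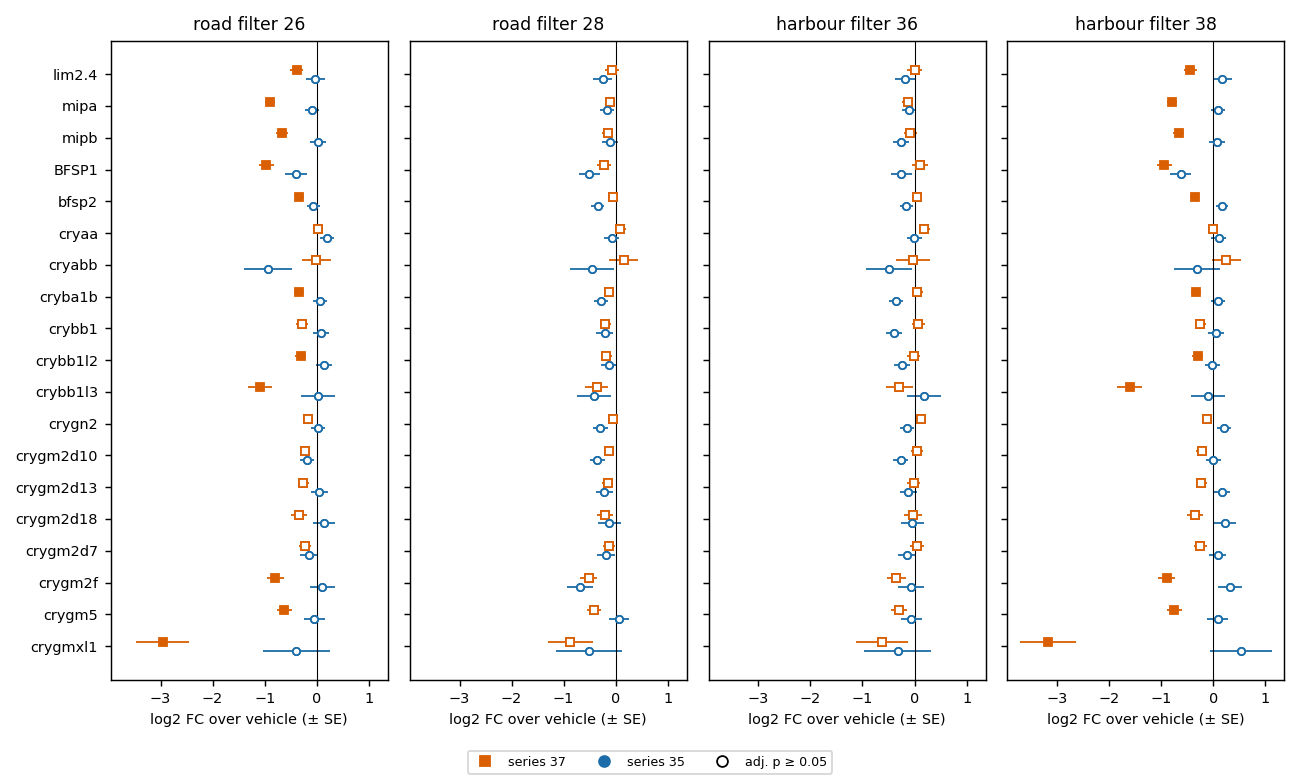
Log2 fold change over vehicle with its standard error for 19 members in road filters 26 and 28 and harbour filters 36 and 38, within series 37 (squares) and within series 35 (circles), where open markers did not pass an adjusted p of 0.05. Filled squares appear for filters 26 and 38, with mipa at -0.90 and -0.80 in series 37, and the circles of series 35 are all open.

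When all pools of a filter entered 1 coefficient with series as covariate, 6 members were lower in filter 26 (6.92% of all genes), 5 in filter 38 (3.68%) and 1 in filter 32 (1.4%), and 0 in filters 28, 30 and 36 (0.0883, 0.0574 and 0.0706% of all genes in either direction), with 6, 8 and 1 members at an unadjusted p under 0.05 (5.6, 10.7 and 6.17%). Filters 26 and 38 shared BFSP1, mipa, mipb and crygm5 among these. The member of filter 32 was BFSP1, at 15.2 CPM in its 1 pool, with a log2 fold change of -1.24 ± 0.26 (adjusted p = 0.0107). Without the series 35 pool of filter 38, harbour 6, 20 members were lower in filter 38, and without road 1, the series 35 pool of filter 26, 14 were lower in filter 26. Left-out libraries of the other kind, any series 37 pool of the filter, gave 1 or 2 members. For filter 26 the count was also 15 without harbour 6, 12 without vehicle 3 and 2 without vehicle 4 or 6. For filter 38 it was 2 without vehicle 4, 5 or 6, and 3 without harbour 3, mock filter 3, road 3, 7 or 8, or any 1 of the subway pools. For filter 32 it was 3 without harbour 6 and 2 without vehicle 1 or 3. None of these fits with a library left out has its share of all genes given here.

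Filters of the same site were compared directly. Among the 8 pools of road filters 26 and 28, mipa differed by -0.58 ± 0.14 and BFSP1 by -0.55 ± 0.14 as 26 minus 28 (adjusted p = 0.0282 and 0.0372, edgeR). No other of 47 members passed (4.82% of all genes were lower). With the pool number shared in the labels as a block in place of series, neither passed (adjusted p = 0.0871 for mipa and 0.0965 for BFSP1, edgeR). Within series 37, 6 members were lower in filter 26 (9.12% of all genes), with mipa at -0.79 ± 0.09, BFSP1 at -0.75 ± 0.14, mipb at -0.52 ± 0.11 and crygmxl1 at -2.09 ± 0.52. The calls in the 8 pools depended on single libraries: 17 members were lower without road 1 or without road 5, the series 35 pools, and 0 without any 1 of road 2, 3, 4, 6, 7 and 8. The shares of all genes called without these libraries are not given. Whether such changes are particular to the members was not tested. Harbour filter 36 against filter 38 gave 0 of 47 members in the 8 pools (0% of all genes). At an unadjusted p under 0.05 there were 4 (20.2% of all genes), and there were 23 higher in filter 36 without harbour 2 or without harbour 6. For these 23 the share of all genes is not given either. Within series 37, 15 of 53 members were higher in filter 36 (6.08% of all genes), led by BFSP1, 1.05 ± 0.15, and mipa, 0.67 ± 0.10 (adjusted p = 9.35e-05 and 0.000174).

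Subway pools had 127, 119 and 123 CPM of mipa, between the airport and the vehicle ranges, and 22.1, 21.2 and 20.4 CPM of BFSP1, below every vehicle pool. crygmxl1 had 0.283, 0.235 and 0.328 CPM in subway pools, against 2.32, 1.35 and 2.18 CPM in series 37 vehicle pools. cryaa had 77.7, 78.5 and 77.9 CPM, inside the range of series 37 vehicle pools. With series as covariate, 0 of 52 members passed against vehicle (0.416% of all genes in either direction; 12 members at an unadjusted p under 0.05, 19.9% of all genes; DESeq2 called 4 lower). In that fit the series 38 coefficient rests on harbour 5 alone, the only other library of series 38. Of the 12 members, crygmxl2 and crygm7 were higher, by 0.84 ± 0.31 and 5.40 ± 2.34 on the log2 scale. The others of the 12 were lower. crygm7 had 0 counts in harbour 5. Set directly against the vehicle pools of series 37, of the same sequencing round, 13 of 53 members were lower (3.84% of all genes), with crybb1l3 at -1.46 ± 0.24, crygmxl1 at -2.76 ± 0.52, BFSP1 at -0.72 ± 0.14 and mipa at -0.48 ± 0.09 (adjusted p = 0.000654, 0.00176, 0.00249 and 0.00266). Every subway pool was below every series 37 vehicle pool for 35 of 52 members (15.8% of all genes). That contrast cannot separate the extract from the difference between series 38 and 37.

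Member levels also differed between the series, which cannot be told apart from the sequencing round. With 1 coefficient per filter, 38 of 53 members were lower in series 37 than in series 35 (14.6% of all genes), 0 were higher and the median was -0.39. All 20 crygm2d genes were among them, with crygm2d12 at -0.62 ± 0.07 and crygm2d7 at -0.59 ± 0.07 (adjusted p = 5.08e-06 and 5.64e-06, edgeR). In the vehicle pools alone, 17 members were lower in series 37 (6.85% of all genes). mipa and mipb showed little of this in vehicle: mipa had 168, 174 and 175 CPM in series 37 against 183, 188 and 178 CPM in series 35, and mipb had 179, 194 and 198 CPM against 157, 214 and 185 CPM.

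**Figure D5:**
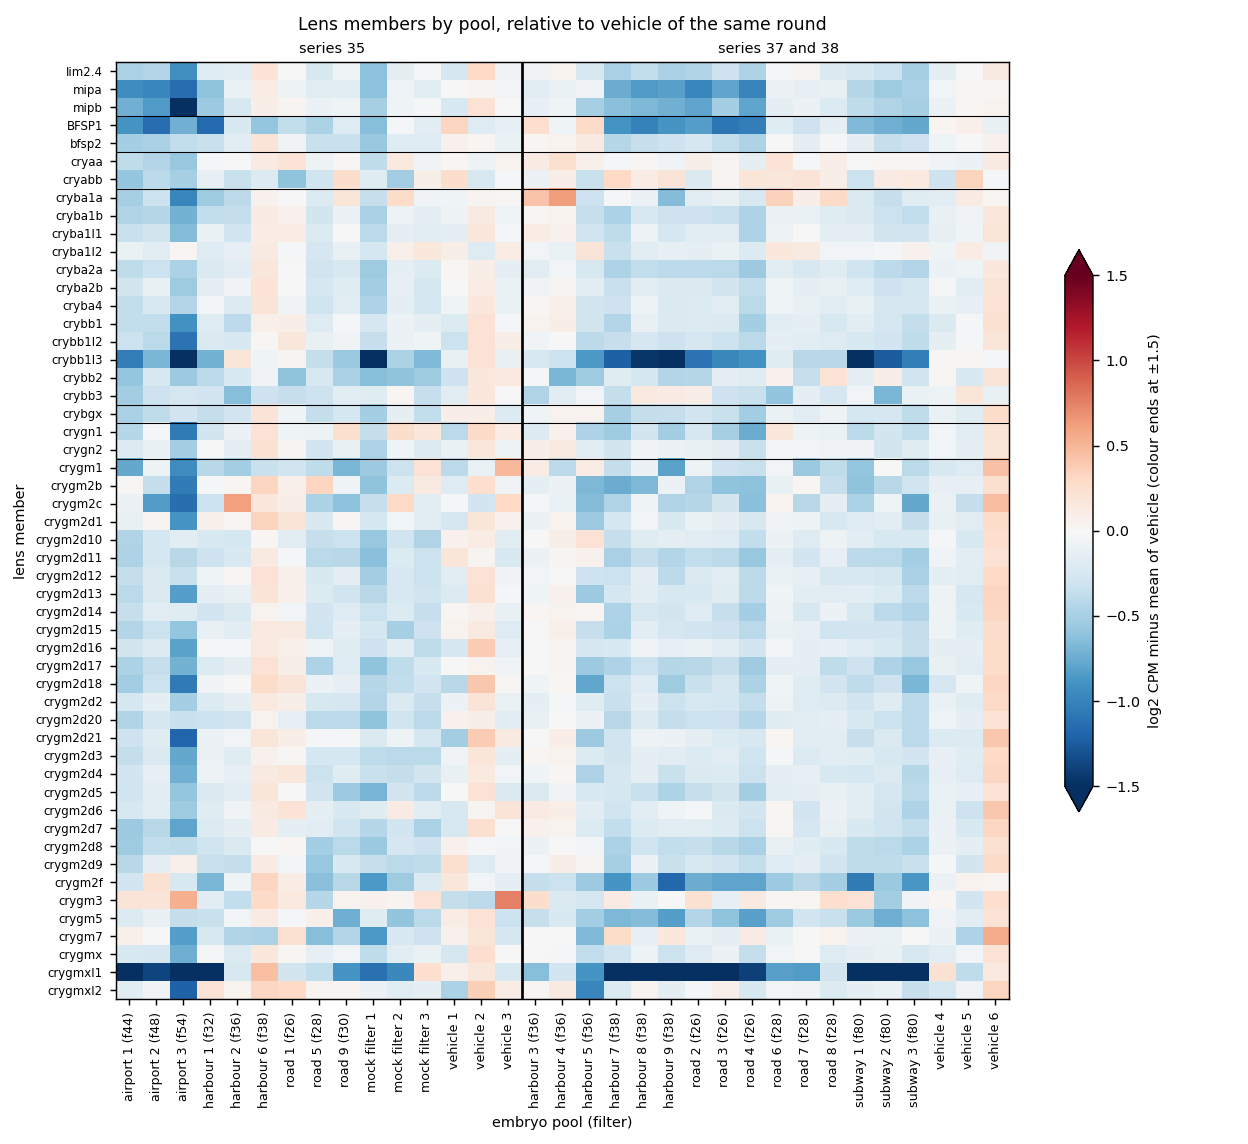
Heat map of the 52 members tested (rows, grouped by family) in the 33 embryo pools (columns, filter in brackets), where colour is log2 CPM minus the mean of the vehicle pools of the same sequencing round, with a pseudocount of 0.5 and colours ending at ±1.5. The mipa row lies at -0.93, -0.98 and -1.15 in the airport columns and between -1.01 and -0.75 in the series 37 columns of filters 26 and 38, while road 1 and harbour 6, the series 35 columns of these filters, lie at -0.08 and 0.11.

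Relative to vehicle of the same round, the median member lay at -0.38, -0.26 and -0.67 in the airport pools, at -0.23, -0.28 and -0.38 in the subway pools and at -0.43, -0.18 and -0.22 in the mock filter pools, on the scale of log2 CPM with a pseudocount of 0.5. In the series 37 pools of filter 26 it lay at -0.23, -0.28 and -0.41 and in those of filter 38 at -0.35, -0.17 and -0.32, while road 1 and harbour 6, their series 35 pools, lay at 0.03 and 0.13. The vehicle pools themselves ran from -0.14 to 0.22, and mock filter 1 was as low as airport 1.

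Other genes of the lens moved in part with the members. Of 17 tested genes of fibre structure and maturation, 10 fell and 1 rose in airport against vehicle, where 17.2% of all genes fell. Against the mock filter 1 was lower and 1 was higher in airport (7.96% of all genes were lower). The list summed to 515.6 to 547 CPM in airport pools. This overlapped the vehicle pools (516.4 to 626 CPM) and the mock filter pools (505 to 577 CPM). The gap junction genes gja3, gja8a and gja8b fell by 1.44, 0.93 and 0.47 on the log2 scale, lim2.5, lim2.1 and lim2.3 fell by 1.09, 0.81 and 0.64, and tdrd7b, whose mammalian relative is a cataract gene, fell by 1.24. lgsn, the lens glutamine synthetase-like protein, fell by 0.93 and dnase1l1l, a nuclease that clears fibre nuclei in zebrafish, fell by 0.81. epha2a, an Eph receptor, was the gene that rose, by 0.85. Of 15 tested regulators of lens and eye, 5 fell (pax6b by 0.71, pax6a by 0.47, sox1a by 0.36, pitx3 by 0.31 and tfap2a by 0.24) and mafba rose by 0.25, while against the mock filter 1 was lower in airport and 0 were higher. foxe3 and hsf4, known for lens development and fibre maturation, did not pass, with 0.14 ± 0.33 and -0.35 ± 0.17. The list of regulators summed to 513 to 602.72 CPM in airport pools, just below the vehicle pools at 602.74 to 660 CPM. Mock filter pools had 601.7 to 647 CPM. Within series 37, 9 of the 17 fibre genes fell in filter 26, where 12.1% of all genes fell. In filter 38, 7 fell, where 24.2% of all genes passed in either direction. In each, 2 rose, vim and epha2a. In filters 28 and 36, 0 passed (0.0839 and 0.0574% of all genes in either direction), with 1 and 0 at an unadjusted p under 0.05 (4.15 and 4.75% of all genes).

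Markers of neighbouring and other tissues were lower in the same airport pools. In airport against vehicle, 13 of 25 photoreceptor genes, 6 of 7 pigment genes, 6 of 8 other retina genes, 7 of 7 cornea and skin genes and 6 of 9 skeletal muscle genes fell, and 0 of any of these lists rose (17.2% of all genes fell). Against the mock filter, 1 photoreceptor gene, 3 pigment genes, 5 other retina genes, 6 cornea and skin genes and 0 muscle genes were lower in airport (7.96% of all genes were lower). There, 2 photoreceptor genes were higher. In mock filter against vehicle 0 genes of these lists passed (0.0136% of all genes in either direction). All 25 photoreceptor estimates lay below 0, with 14 at an unadjusted p under 0.05 (13.7% of all genes). The share of all genes with estimates below 0 is not given here. Cornea and skin genes summed to 4949 to 5772 CPM in airport pools, against 12033 to 15206 CPM in vehicle pools. Other retina genes summed to 306 to 331 CPM in airport pools against 438 to 496 CPM in vehicle pools, and pigment genes to 144 to 216 CPM against 262 to 390.5 CPM. Photoreceptor genes summed to 7141 to 7801 CPM in airport pools against 7919 to 9689 CPM in vehicle pools, and muscle genes to 24874 to 27221 CPM against 28684 to 35467 CPM. The airport and vehicle ranges of these 5 lists did not overlap. The mock filter pools overlapped both for photoreceptor genes (7166 to 8182 CPM) and pigment genes (196 to 378 CPM). For other retina genes (416 to 440 CPM) and muscle genes (27389 to 29630 CPM) they overlapped vehicle only. For cornea and skin genes, at 10143 to 10929 CPM, they lay between airport and vehicle and overlapped neither. Of 27 heat shock genes, which are mostly chaperones, 17 rose and 0 fell in airport against vehicle, and 7 were higher against the mock filter. The same lists moved in filters 26 and 38 within series 37. There, 7 and 7 of 7 cornea and skin genes, 14 and 10 of 25 photoreceptor genes and 6 and 6 of 8 other retina genes fell. Of 27 heat shock genes, 20 and 15 rose. Over all genes, 12.1% fell in filter 26 and 24.2% passed in either direction in filter 38. Shares of all genes that rose are not given here, so the heat shock counts have no such share beside them. The part of these lists in the change of the lens members was not tested.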

How the data were processed

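The deposited table holds raw read counts per gene for 33 libraries of zebrafish embryo RNA, and a second table gives library quality. Per the submitters' processing notes, the tools were CASAVA and BWA and the build was GRCz11. How reads were counted, by which annotation and with which strand setting, is not given in the sources used here. Per the file headers, the quality table gives percent of unique, unmapped and duplicate reads and insert sizes. The authors' table names 17766 genes. Of the rest, 5860 were named through an ID table and 1806 had no name.

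Counts were tested with edgeR 4.0.16 in R 4.3.3 (limma 3.58.1) by the quasi-likelihood test, with filterByExpr (minimum count 10), TMM scaling and Benjamini-Hochberg adjustment over all genes tested. An adjusted p under 0.05 was called. All 33 libraries entered each site fit and each filter fit, with library series as covariate, and only the 8 libraries concerned entered the comparisons of filters 26 with 28 and 36 with 38. The fit by filter and series was added after the data were seen. DESeq2 1.42.0, other scalings, filters, covariates and controls and fits without single libraries or filters served as alternatives, and the test was run on simulated data. Apart from airport against mock filter, shares of all genes called are not given for these alternatives.

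The members, marker lists and tests were chosen with earlier results of these data known. Members named in the text are those past the threshold where at most 12 passed, otherwise the 6 with the smallest p, the most abundant of each family, the membrane and filament genes, and any whose direction went against the others. Some further members were named after their values were seen. In the compared pairs of libraries the replicates differed by more than counting noise (45 pairs, lowest chi-square per degree of freedom 4.58). Depth was 18448718 to 51854033 counts, so that members with a few counts had wide errors.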

Additional observations from a re-analysis of the deposited data

Results flagged for a closer look

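Libraries far from the others of their filter, or of harbour, road or vehicle, were looked for by Dixon's ratio in 154 groups of values. They were found 23 times, where chance at 1 in 20 would give about 8. Road 1 was the high pool of filter 26 for 7 members. It had 173 CPM of mipa where the other pools had 85.4 to 99.5 CPM. It had 82.1 CPM of lim2.4, 5.90 of crybb1l3, 7.90 of crygm2f, 846 of cryba1b, 611 of crygm2d13 and 356 CPM of crygm2d18, each above the 3 series 37 pools.

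Harbour 6 was the high pool of filter 38 for 11 members. It had 198 CPM of mipa where the other pools had 95.6 to 102 CPM, and 197 CPM of mipb where they had 115 to 123 CPM. It also had 94.95 CPM of lim2.4, 109 of bfsp2, 2.60 of crygmxl1, 5.42 of crybb1l3, 15.6 of crygm5, 109 of cryaa, 984 of crybb1l2, 667 of crygm2d13 and 440.2 CPM of crygm2d7. Both libraries are of series 35 and the other pools of these filters are of series 37, and the part of the series in these gaps was not tested apart from the fits by series.

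In filter 28, road 6 had 5.06 CPM of crybb1l3 where the other pools had 4.23 to 4.35 CPM. Road 5 had 902 CPM of crybb1l2 where the others had 777 to 797 CPM, and 421 CPM of crygn2 where they had 447 to 451 CPM. cryaba, with few counts anywhere, was 0.213 CPM in harbour 6 where no other harbour pool was above 0.0720, the value of harbour 3, which was the only pool of filter 36 above 0.

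The change against vehicle differed between series for 12 combinations of member and filter, as series 37 minus series 35 on the log2 scale. In filter 26 it was -0.81 for mipa and -0.69 for mipb. In filter 38 it was -0.88 for mipa, -0.73 for mipb, -3.71 for crygmxl1, -1.503 for crybb1l3, -1.21 for crygm2f, -0.83 for crygm5, -0.60 for crygm2d17, -0.57 for crybgx, -0.55 for cryba2a and -0.52 for bfsp2. The largest adjusted p of these was 0.037 by edgeR, and each filter has 1 pool in series 35, assumed to vary like the other groups.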

How the results depend on the processing

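Over the single members and alternatives, 6065 combinations kept direction and side of the threshold, 537 kept direction but no longer passed and 5 reversed. With the mock filter as control, crygm2d10 was 0.15, crygm2d12 0.055, crygm2d2 0.032, crygm2d20 0.086 and crygm2d5 0.11 in airport. The cause was not tested for any change given here, and shares of all genes called are not given beside the counts. The 38 members lower in airport against vehicle became 4 with the mock filter as control, 11 with no covariate, 14 with airport and vehicle libraries only, 20 in series 35 alone, 24 with vehicle and mock filter as control and 20 without filter 54. The number higher became 2 when rows named by the ID table were added and 1 without the 3 libraries high in mxc. Against the mean of harbour and road, the 19 lower became 4 with no covariate and 3 without filter 54, and 2 were higher with the rows of the ID table. DESeq2 gave 10 lower for filter 26, 1 for filter 30, 4 for filter 32, 18 for filter 44, 8 for filter 48, 2 for mock filter, 2 for road and 4 for subway. Library totals without TMM gave 11 for filter 26 and 5 for filter 48. No filter on low counts gave 5 lower and 1 higher for filter 48. Without the 3 libraries high in mxc, 11 were lower for filter 26, 1 for filter 30, 4 for filter 32, 15 for filter 44 and 7 for filter 48, and 1 was higher for filter 54. With no covariate, 2 were lower for filter 38, 2 for filter 44, 14 for filter 54 and 0 for filter 26 against 28. Without filter 36, 7 were lower in harbour. Without filter 28, 8 were lower in road, and without filter 38, 1 was. In subway, 11 were lower with subway and vehicle libraries only, 1 without filter 26, and 1 lower and 1 higher without filter 54. Subway was not set against vehicle in the refits without harbour 5 or without filter 36. In those refits the extract and series 38 cannot be told apart.

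With 1 library left out, the counts lower ran from 20 to 40 for airport, 3 to 23 for airport against harbour and road, 2 to 15 for filter 26, 0 to 1 for filter 30, 1 to 3 for filter 32, 1 to 20 for filter 38, 8 to 17 for filter 44, 3 to 6 for filter 48, 33 to 36 for filter 54, 0 to 1 for harbour, road and subway, 0 to 9 for mock filter, 0 to 17 for filter 26 against 28 and 30 to 40 for series 37 against 35. The counts higher ran from 0 to 1 for airport against vehicle, airport against harbour and road, filter 54 and subway, and from 0 to 23 for filter 36 against 38. With the replicate block, filter 26 against 28 gave 0 in place of 2 (mipa adjusted p 0.0871, BFSP1 0.0965). The same-numbered road pools correlated by 0.026 to 0.203, which does not settle whether the shared numbers pair them. The labels do not say what the numbers mark. In the labels harbour filters 36 and 38 share numbers for 2 pools each, which correlated by 0.245 and 0.133. Among these 4 pools, a choice made after seeing the data, 27 members were higher in filter 36 with the replicate block and 13 without it. With pools numbered in accession order, 36 against 38 and mock filter against vehicle stayed at 0 under the block. For harbour this order matches the pools that share label numbers, and it matches the series 35 pools of both filters. Each pool of filter 36 correlated most with the same-numbered pool of filter 38 (0.387, 0.245, 0.133 and 0.156). For mock filter and vehicle the correlations were 0.222, -0.18 and 0.284. Members with few counts are limited by depth.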

Other observations

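Another 5 crystallin genes have no name in the count table and are named by the ID table. In airport against vehicle, 4 of them passed (edgeR), in both directions. Over all genes tested, 17.2% were lower, and the share that was higher is not given here. crybg1b was higher by 0.77 ± 0.17 on the log2 scale (adjusted p = 0.00101) and crybg1a by 0.38 ± 0.10 (adjusted p = 0.00338). Their mammalian relative is known outside the lens. crybb1l1, a beta crystallin-like gene, fell by 0.51 ± 0.13 (adjusted p = 0.00333) and crygm2d19, a further gamma M copy, fell by 0.34 ± 0.11 (adjusted p = 0.0143). crygm2e did not pass, at -0.07 (adjusted p = 0.895).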
